A study of Mus musculus with 15 samples.

Results

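The proteasome subunit and assembly genes of the mouse were followed through ChIP-seq peak lists of the transcription factors Myc and Miz1 and of RNA polymerase II (RNAPII). Members were the protein-coding genes of GENCODE vM1 (genome build mm9) whose symbol starts with Psma, Psmb, Psmc, Psmd, Psme, Psmf or Psmg. The rule found 50 of 22219 protein-coding gene symbols. They comprise 8 alpha and 7 standard beta subunits of the 20S core, 4 induced or thymic beta subunits, 6 ATPases and 11 other subunits of the 19S cap, 5 activators or inhibitors, and 7 assembly chaperones. The 2 remaining members match by symbol only: Psmc3ip is a meiotic recombination factor, and Psme2b-ps carries a pseudogene name.

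The proteasome is the cell's main protease for ubiquitin-tagged proteins. Its barrel-shaped 20S core is built from rings of alpha subunits, which gate the entrance, and beta subunits, some of which carry the proteolytic sites. The 19S cap recognises ubiquitin, removes it, and unfolds the substrate with its ring of ATPases. Dividing fibroblasts make the standard particle, whereas immune cells and interferon-treated cells exchange the catalytic beta subunits for the induced Psmb8, Psmb9 and Psmb10. Genes of the standard particle are known to be driven together by Nfe2l1 and Nfe2l2, which bind antioxidant response elements. Myc is a transcription factor that with Max binds E-boxes (CACGTG) and occupies most active promoters when abundant. Miz1 (Zbtb17) is a zinc-finger factor that binds DNA directly and is a partner of Myc.

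The fibroblast lists came from 3T9-MycER cells, a mouse embryonic fibroblast line (E13.5) of genotype c-mycflox/flox, infected in culture with a construct for MycER, a Myc fusion that 4-hydroxytamoxifen (OHT, 400 nM) activates. Myc and RNAPII were profiled at 0 min (before OHT) and at 10, 20 and 30 min, 2 h and 4 h after it, and Miz1 in the same cells, with labels that name no OHT treatment. Miz1 was also profiled in B cells from the spleen of WT C57BL/6 mice of 6-8 weeks, enriched with B220 beads. Each of these 14 groups was 1 library, so no difference had a replicate and none was tested. Whether the Myc antibody signal came from the cells' own Myc or from MycER cannot be told apart in the lists. Of 10 fibroblast marker genes 9 had a RNAPII promoter peak at 0 min, against 0 of 10 B cell markers, 1 of 5 macrophage markers (Cd68) and 1 of 5 T cell markers (Lck). The B cells had only a Miz1 list, which is no measure of cell identity; it held promoter peaks at 2 of the 10 B cell markers (Cd22 and Cd79a), and the fibroblast Miz1 list at 0. Libraries held 28132063 to 33431447 tags for Myc, 15276996 to 36396286 for RNAPII, and 10164509 (fibroblast) and 24237295 (B cell) for Miz1. The RNAPII library of 20 min was the deepest, and that of 0 min the shallowest.

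A gene was counted as having a promoter peak where a deposited peak overlapped the 1000 bp on either side of any of its annotated transcription start sites. Miz1 had a promoter peak at 11 members (22%) in fibroblasts, against a background of 8.25% of all genes. In B cells it had one at 5 members (10%), against 5.48%. Among the 10544 genes with a RNAPII promoter peak at 0 min the Miz1 shares were 16.1% and 10.3%. Of the 45 members with such a RNAPII peak, 11 had Miz1 in fibroblasts and 5 in B cells. On these few genes, the members' share was somewhat above that of such genes in fibroblasts and about level with it in B cells. The strength of a few of these peaks stood out more than their number. Peaks in the highest 10% of the fibroblast list by fold enrichment lay at 5 members (10%), against 1.75% of all genes and 3.53% of genes with RNAPII. The lowest of these 5, Psmc3, had 12.7-fold, at the cutoff itself, with its summit on a simple repeat. In the B cell list such peaks lay at 3 members (6%), against 1.18% of all genes and 2.33% of genes with RNAPII.

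The leading Miz1 promoters among the members belonged to Psmd3 and Psma1. Fold enrichment here is the authors' own value for a peak over the control, and it ranks peaks within a list only. Psmd3, a structural subunit of the 19S lid, had a peak of 269-fold in fibroblasts, which ranked 4th of the 1833 genes with a Miz1 promoter peak. In B cells its peak was 89.1-fold and ranked 43rd of 1217 genes. Psma1, an alpha-ring subunit, had 191-fold in fibroblasts (20th) and 104-fold in B cells (19th). Both genes therefore stood near the top of both lists. The summits lay 50 bp upstream of the Psmd3 start site in fibroblasts and 27 bp upstream in B cells. At Psma1 the summit was 6 bp upstream of the start in fibroblasts and 1 bp downstream of it, in the 5′ UTR, in B cells. The nearest start site of another protein-coding gene was 18153 bp from the fibroblast summit of Psmd3 (Gsdma) and 21413 bp from that of Psma1 (Copb1).

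The DNA under these summits is shown because it holds the strongest Miz1 sites of the set. The Psmd3 stretch is chr11:98543743-98543842 of mm9, plus strand, between genes and just upstream of the start site. Its capitals mark 2 identical copies of a 14-base sequence, 31 bases apart, and the fibroblast summit lies just after the second copy. Such a direct repeat of at least 12 bases occurred within 100 bp of the summit at 11.5% of all genes with a fibroblast Miz1 promoter peak. The Psma1 stretch is chr7:121419633-121419712, minus strand, the 80 bases before the start site, with the fibroblast summit base in capitals.
Psmd3: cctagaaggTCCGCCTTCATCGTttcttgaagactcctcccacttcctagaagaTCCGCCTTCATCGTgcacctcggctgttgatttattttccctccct
Psma1: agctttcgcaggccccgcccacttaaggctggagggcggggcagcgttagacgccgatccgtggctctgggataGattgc
The hexamer ATCGAT, searched on both strands as a published core of Miz1 sites, was within 100 bp of 0 of 11 fibroblast and 0 of 5 B cell summits of members. It was there at 2.45% and 3.37% of all genes with a Miz1 promoter peak.

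Psmg4 and Psmb3 followed in strength and differed in where they were called. Psmg4, an assembly chaperone of the alpha ring, had 20.9-fold in fibroblasts (206th) and 71.7-fold in B cells (82nd), with summits 42 and 48 bp downstream of the start, in its 5′ UTR. Psmb3, a non-catalytic beta subunit, had 31.4-fold in fibroblasts (149th) and no promoter peak in the B cell list. Its summit lay 270 bp upstream of the start and 39 bp from an E-box that was itself close to the Myc summit. The 65 bases chr11:97564433-97564497 (plus strand) hold both, with the Miz1 summit base and the E-box in capitals, and 30 bases at chr13:34254861-34254890 (plus strand) hold the fibroblast Miz1 summit of Psmg4 in capitals.
Psmb3: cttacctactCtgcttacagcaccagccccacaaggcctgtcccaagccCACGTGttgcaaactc
Psmg4: cgttccgcttttcgGagctcgctctctctg

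Psmc3, a 19S ATPase, had a Miz1 peak of 12.7-fold in fibroblasts (364th) and of 12.4-fold in B cells (472nd). It sat 445 and 466 bp upstream of the start, on a simple CT repeat. The 60 bases chr2:90893691-90893750 (plus strand) show the repeat in capitals.
Psmc3: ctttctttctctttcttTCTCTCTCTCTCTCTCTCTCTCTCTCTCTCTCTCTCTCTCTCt
A run of GA or CT of at least 20 bases lay within 100 bp of the summit at 7.75% of genes with a fibroblast Miz1 promoter peak and at 11.7% of those with a B cell one. The part of the repeat in the Psmc3 peak was not tested.

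The other Miz1 peaks at members were weak. Psmg1, a chaperone of the alpha ring, had 8.94-fold, the induced subunit gene Psmb10 had 8.19-fold, and the alpha subunit gene Psma4 had 6.43-fold in fibroblasts and 9.30-fold in B cells. Psma5 and Psma6, both alpha subunits, had 5.21-fold each, and Psmb6, which carries a catalytic site, had 5.00-fold, all in fibroblasts only. The fibroblast summits at Psma4 and Psmb10 lay 1146 bp upstream and 1182 bp downstream of the start, so that these peaks only reached into the promoter window. The fibroblast list was called with a looser p cutoff (1e-02) than the B cell list (1e-05). At 1e-05 in both lists 8 members had a fibroblast peak, 5 had a B cell peak, and the 5 shared genes were as before. At Psma4 the peaks of the cell types did not overlap, and the B cell summit lay 117 bp upstream of the start. With summits required inside the promoter window, 4 members had Miz1 in both cell types. By class, Miz1 was found in fibroblasts at 4 of 8 alpha subunit genes, 2 of 7 standard beta and 1 of 4 induced or thymic beta. It was at 1 of 6 ATPase, 1 of 11 other cap, 0 of 5 activator or inhibitor and 2 of 7 chaperone genes. The share was 8.25% over all genes and 16.1% over genes with RNAPII at 0 min. Of the 4 alpha genes, Psma5 and Psma6 had a −log10 p of 4.09, short of the 1e-05 cutoff. The Psma4 summit lay outside the window, and the alpha median was 5.82-fold, at percentile 26.7. All 11 members with Miz1 had Myc and RNAPII promoter peaks at every time, as 90.2% of all genes with fibroblast Miz1 had Myc in all 6 lists. At Psma6 these were at different start sites, with Miz1 at the upstream one and Myc and RNAPII at the downstream one.

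**Figure D1:**
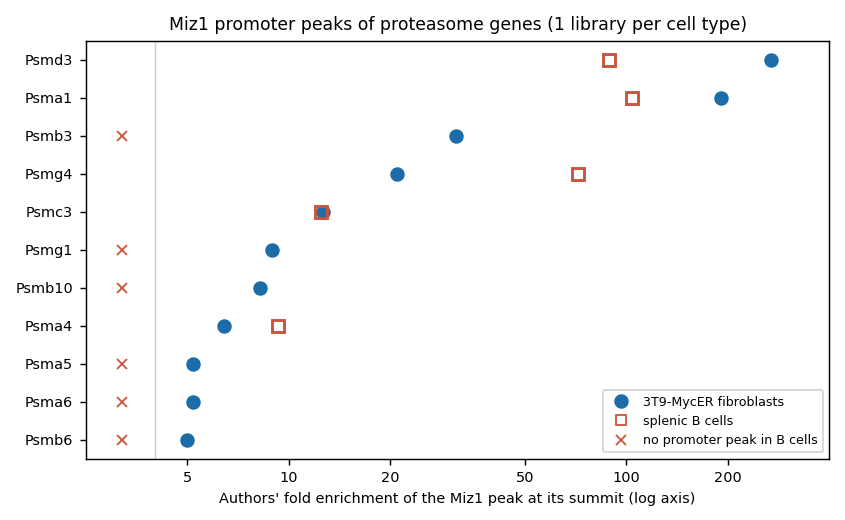
Authors' fold enrichment (log axis) of the Miz1 promoter peak at the 11 members that have one, in 3T9-MycER fibroblasts (filled circles) and splenic B cells (open squares; crosses at the left mark no promoter peak). Psmd3 and Psma1 lie at the right in both cell types, Psmg4 lies at 20.9-fold and 71.7-fold, and 6 members have a fibroblast peak only.

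Myc occupied nearly the whole set before OHT. A Myc promoter peak was found at 44 members (88%) at 0 min, against 44.7% of all genes. Later lists gave 44 members at 10 min (background 46.8%), 46 at 20 min (47.9%), 45 at 30 min (46.6%), 46 at 2 h (48.9%) and 44 at 4 h (46.7%). In all 6 lists together it was at 44 members, against 43.3% of all genes. Of genes with a RNAPII promoter peak at 0 min, 89.6% had Myc at 0 min, and 89.6% to 94.8% across the 6 lists. Of the 45 members with such a RNAPII peak, 44 had Myc at 0 min, slightly above the share of such genes. Their Myc peaks were of middling rank. The members' median fold enrichment stood at percentile 57.5 of all Myc-bound genes at 0 min, and at 55.9, 53.1, 51.2, 53.0 and 54.7 in the later lists. Ranked by the peak's p instead of its fold, the median at 0 min was at percentile 46.2. Cytosolic ribosomal protein genes, also house-keeping genes for an abundant particle, had medians of 90.2 to 95.1, and the 8 genes of the CCT chaperonin 93.3 to 96.1.

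The members without Myc were 3 genes of tissue-restricted or induced subunits and the pseudogene-named member. Psma8, a testis-specific alpha subunit, Psmb8, an induced catalytic subunit, Psmb11, the thymus-specific catalytic subunit, and Psme2b-ps had no Myc promoter peak in any list, and no RNAPII promoter peak in any narrow or broad list either. Psmb9, the partner of Psmb8 in the induced core, had a weak Myc peak of 5.92-fold at 20 min and of 7.05-fold at 2 h, the Myc lists with the most peaks, and no RNAPII promoter peak. Psmb9 shares its promoter with Tap1, a peptide transporter gene on the opposite strand. Psmd10 (gankyrin), a cap chaperone that shares its promoter with Atg4a, had Myc at 20 min (5.87-fold), 30 min (5.34-fold) and 2 h (5.21-fold), and lacked a RNAPII promoter peak at 4 h in the narrow list and at 2 h and 4 h in the broad lists.

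The location of these genes set occupied and empty promoters side by side. Psmb5, which carries the chymotrypsin-like site, and Psmb11 lie on chromosome 14 with start sites 7315 bp apart. Psmb5 had Myc in all 6 lists (12.3-fold at 0 min, 20.4-fold at 4 h) while Psmb11 had none. Psmb8 and Psmb9 lie 9956 bp apart on chromosome 17 and both lacked RNAPII. Psmb10, the third induced subunit gene, lies on chromosome 8 away from them, and peaks of Myc (21.0-fold at 0 min, 22.3-fold at 4 h) and RNAPII overlapped its promoter window in all 6 lists. The Myc summits lay 1388 to 1446 bp downstream of its start and the narrow RNAPII summits 1138 to 1218 bp, inside the gene, so that these peaks only reached into the window. Psme1 and Psme2, which form one activator ring together, lie 5911 bp apart on chromosome 14 with start sites facing away from the gap, and had Myc at 13.6-fold and 12.03-fold at 0 min and 16.6-fold and 15.2-fold at 4 h.

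Among the bound members the range was wide. Psme3, the nuclear activator subunit, ranked highest of the members in every Myc list, with 64.2-fold, 98.7-fold, 95.4-fold, 88.8-fold, 97.6-fold and 83.9-fold in order of time. That placed it at percentile 99.6 of Myc-bound genes at 0 min and 99.1 at 4 h. At 4 h it was followed by Psmb3 (56.6-fold), the ATPase gene Psmc2 (51.4), the chaperone genes Psmg2 (51.2) and Psmg4 (47.3), and Psmd3 (46.8). Psmb3, Psmd3 and Psmg4 also had Miz1 in fibroblasts, so 3 of the 6 highest did, against 11 of the 44 members with Myc in all 6 lists. The share of Miz1 among the highest Myc genes of the whole list was not computed. The lowest at 4 h were Psmb6 (8.17-fold), the lid subunit gene Psmd13 (10.9), the cap chaperone gene Psmd9 (11.4) and Psme4 (11.6), whose product is a large nuclear activator. Psma1, with one of the strongest Miz1 peaks, had a Myc peak of only 10.98-fold at 0 min and 15.6-fold at 4 h, at percentiles 38.8 and 40.2. Strong Miz1 and strong Myc did not always fall on the same member.

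By class, the assembly chaperone genes held the highest median Myc rank at 4 h. Their 6 bound members had a median at percentile 82.0, against 71.4 for 7 alpha subunit genes, 51.7 for 11 non-ATPase cap genes, 43.6 for 7 standard beta genes, 39.2 for 6 ATPase genes and 38.7 for 5 activator or inhibitor genes. At 0 min the alpha subunit genes were highest at 72.8, with the chaperone genes at 68.6, and the standard beta genes at 46.9. Each class held both high and low genes, such as Psme3 and Psme4 among the activators and Psmb3 and Psmb6 among the beta subunits. Lists of different lengths were ranked separately, so these medians show no change with time.

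**Figure D2:**
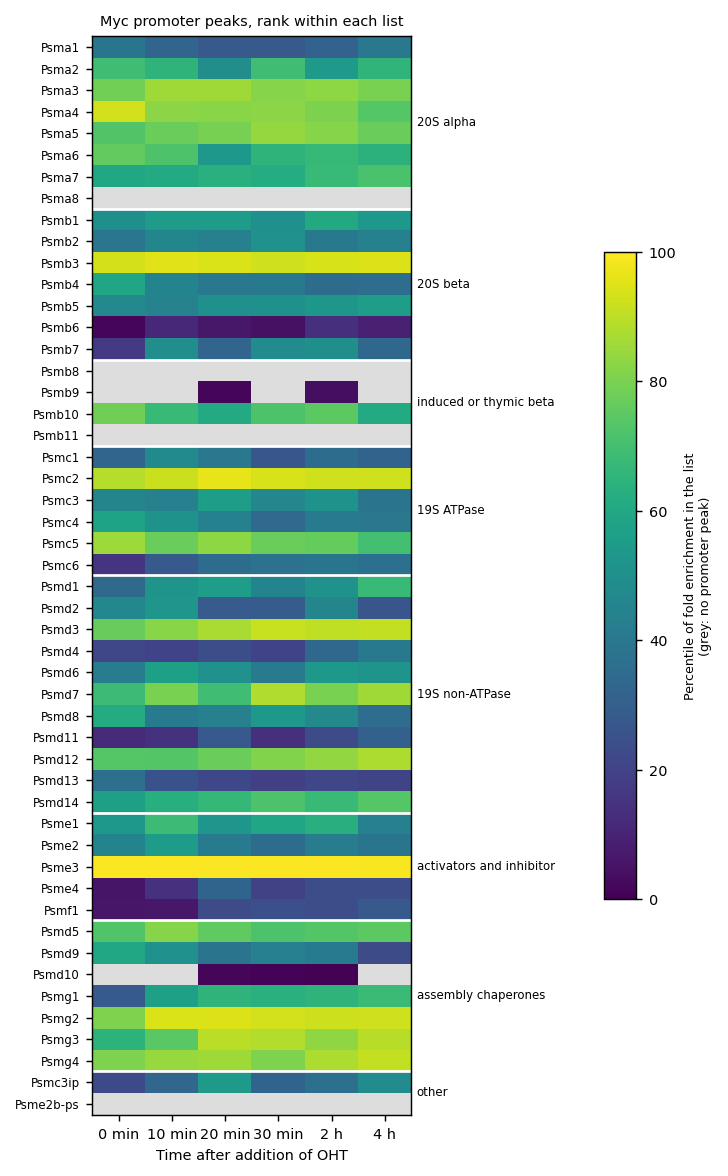
Percentile of each member's Myc promoter peak among all genes with one, by fold enrichment (colour, 0 to 100), at 6 times after OHT, with members in rows grouped by class and grey for no promoter peak. Psme3, Psmb3 and Psmc2 stay near the top in every list, Psmb6 near the bottom, and Psma8, Psmb8, Psmb11 and Psme2b-ps are grey throughout.

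E-boxes lay under few of the members' Myc summits. CACGTG, a palindrome, lay within 100 bp of the Myc summit at 5 of 44 members (11.4%) at 0 min, against 18.9% of all Myc-bound genes. At 4 h it did so at 4 of 44 (9.09%), against 17.5%. The 95% Wilson intervals of these members' shares were wide, 4.95% to 24% at 0 min and 3.59% to 21.2% at 4 h, and held the all-gene shares. The members with an E-box were Psma4, Psmb3, Psmb10 and Psmg3 in both lists and Psme3 at 0 min. At Psmb10 the summit lies inside the gene and not at its start. The 4 with an E-box at 4 h had a median of 36.3-fold and the 40 without one 18.3-fold, a difference also seen over all genes (29.5-fold for 1819 genes and 17.0-fold for 8559). The sites are shown in 30 bases on the strand of the gene, with the E-box in capitals. They come from chr9:54798514-54798543 (Psma4, plus), chr8:108460854-108460883 (Psmb10, minus), chr5:140302407-140302436 (Psmg3, minus) and chr11:101177471-101177500 (Psme3, plus).
Psma4: ttctgcacagtcCACGTGggcagactgagc
Psmb10: aggtaccaaggcCACGTGggggcatcactg
Psmg3: gacatgtgccacCACGTGcagcttggaatg
Psme3: ggctgcgcagggCACGTGctcatcctcccc
With CACGCG also allowed, 10 of 44 members had a match at 0 min and 12 of 44 at 4 h, against 38% and 37.1% of all genes.

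Of 4 motifs searched at promoters, the core of the antioxidant response element was the most above the share of all promoters. TGACNNNGC, searched on both strands from 400 bp before to 100 bases into the gene, was found at 16 of 50 members (32%), against 19.1% of all genes. All 16 were among the 45 members with RNAPII at 0 min (35.6%), where the share over all such genes was 21.2%. In the same window CACGTG was at 7 members (14%, all genes 10.8%), CCAAT at 24 (48%, all genes 51.1%) and ATCGAT at 0 (all genes 1.51%). Among the 45 members with RNAPII at 0 min, CACGTG was at 6 (13.3%), about level with the 14.2% of all such genes. As examples, the catalytic subunit genes Psmb5 and Psmb6 and the lid gene Psmd7 had the element within 104 bp upstream of the start, 43, 34 and 104 bp from it. The sites are chr14:55236860-55236889 (minus), chr11:70338840-70338869 (plus) and chr8:110112471-110112500 (minus), with the element in capitals. At Psmd7 it reads on the other strand.
Psmb5: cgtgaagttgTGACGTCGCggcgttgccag
Psmb6: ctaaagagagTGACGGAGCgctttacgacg
Psmd7: tcaatgccaaGCTTCGTCAatagcctaagt

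RNAPII was at almost the same members at all times. In the narrow lists, 45 members (90%) had a promoter peak at 0 min, against 47.5% of all genes. The number held at 45 for 10 min (background 47.3%), 20 min (48.4%), 30 min (46.4%) and 2 h (46.3%), with 44 for 4 h (46.8%). In all 6 narrow lists it was 44, against 43.5%. The broad lists gave 45 members for 0 min (background 44.4%), 10 min (44.9%), 20 min (46.8%) and 30 min (43.3%), and 44 for 2 h (43.8%) and 4 h (43.8%). All 6 broad lists had a promoter peak at 44 members, against 41.3% of all genes. The members' median narrow peak stood between percentiles 50.4 and 56.0 of all bound genes in the 5 later lists, with 28 of the 45 in the higher-ranked 50% at 0 min. Ribosomal protein genes had medians of 92.9 to 94.5. Psmc3ip, which is no proteasome gene, had RNAPII in all 6 lists at percentiles of 71.4 to 85.1, above the median of each true subunit class at 0 min.

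Promoter RNAPII also varied among the members. At 0 min the highest narrow peaks with a summit in a member's promoter window were at Psma6 (55.5-fold) and Psma3 (54.3-fold), at percentiles 87.2 and 86.4 of all bound genes. The peak that overlapped the Psmb3 window had 57.3-fold, but it was 7431 bp long and its summit lay 2941 bp upstream, 39 bp from the start of Pcgf2, so that its height cannot be assigned to Psmb3. The broad peak at the Psmb3 start had 28.96-fold at 0 min, at percentile 59.1. The lowest were at Psmd10 (7.49-fold, percentile 2.07), Psmf1 (18.7-fold) and Psmc4 (19.4-fold). In the next 4 lists Psmd10 had 10.8-fold, 9.04-fold, 8.30-fold and 4.60-fold. None of the 45 reached the 10% of genes with the highest RNAPII fold at 0 min. Some members ranked differently for the polymerase and for Myc. Psmb6, lowest for Myc, had a RNAPII peak of 34.0-fold at 0 min, and Psme4 had 37.6-fold at percentile 66.8 against percentile 5.49 for Myc.

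At 10 of the 50 members the promoter was shared with a gene of the opposite strand, whose start lay within 1000 bp, against 11.3% of all genes. The share among genes with RNAPII was not computed. The closest were Psmc2 with Dnajc2, a ribosome-bound chaperone gene, at 32 bp, and Psmb9 with Tap1 at 38 bp. The others were Psmc5 with Ftsj3 (75 bp), Psma7 with Ss18l1 (76 bp), Psmd13 with Sirt3 (99 bp), Psma4 with AY074887 (139 bp), Psmd10 with Atg4a (179 bp), Psma2 with Mrpl32 (217 bp), Psmg2 with Cep76 (263 bp) and Psme2 with Rnf31 (595 bp). Peaks at these promoters cannot be assigned to either gene, which holds for Psmc2 and Psmg2, both among the 6 highest for Myc at 4 h. By chromosome, 10 of the 50 members lay on chromosome 11, including Psmb3, Psmb6, Psmd3 and Psme3.

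How far RNAPII peaks reached along the gene differed widely between members. Gene-body cover is the share of the gene, from 1000 bp past its start to its end, that lies under peaks. It was computed for the 42 members of at least 3000 bp with a RNAPII promoter peak at 0 min, and for 9765 such genes in all. Mean narrow cover of the members began at 38.7% at 0 min and came to 55.3% at 10 min, 60.4% at 20 min, 48.8% at 30 min, then 48.6% at 2 h, with 45.9% at 4 h. For all genes it was 21.6%, 28.0%, 33.0%, 24.5%, 25.7% and 22.8%. In these narrow lists the members lay above all genes at each time. Both were lowest at 0 min and highest at 20 min, which were also the shallowest and the deepest library. The members lay above all genes of their length class at every time too. In genes of 3 to 10 kb, 15 members had 49.3% at 0 min and 61.4% at 30 min, against 46.1% and 48.1%. In genes of 10 to 20 kb, 14 members had 36.5% and 39.1%, against 25.7% and 29.8%, a smaller difference between these times than in all genes. In genes of 20 to 50 kb, 9 members had 34.0% and 51.3%, against 15.4% and 19.3%. In genes of 50 kb or more, 4 members had 16.8% and 29.4%, against 6.16% and 8.04%.

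In the narrow lists, longer cover after OHT was found at a larger share of the members than of all genes, with no matching for gene length. Cover was higher than at 0 min by over 20 points at 15 of 42 members (35.7%) at 10 min, against 12.9% of all genes. It was higher at 18 (42.9%) at 20 min against 22%, 10 (23.8%) at 30 min against 9.22%, 12 (28.6%) at 2 h against 10.5%, and 9 (21.4%) at 4 h against 7.31%. Lower cover by over 20 points was seen at 1 member at 30 min (background 4.03%) and at 0 members at 4 h (4.85%). The libraries of 30 min and 4 h, with 16274905 and 16268203 tags, were close in depth to that of 0 min with 15276996. The narrow lists also differed in the length they covered, from 74.26 Mb at 0 min to 117.28 Mb at 20 min, 84.76 Mb at 30 min and 74.48 Mb at 4 h. With each list reduced to its strongest peaks of equal total length, the members' means became 38.7%, 48.9%, 44.8%, 41.6%, 44.3% and 45.7% in order of time, with 10 min the highest. Then 11 members at 20 min, 7 at 30 min and 9 at 4 h were higher by over 20 points, against 11.6%, 7.32% and 7.25% of all genes.

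The broad lists showed less of this. In order of time, mean broad cover of the 42 members was 4.48%, 6.29%, 15.3%, 5.05%, 5.54% and 4.40%. Higher by over 20 points were 0 members at 10 min (background 3.79%), 7 (16.7%) at 20 min against 10.6% of all genes, 1 (2.38%) at 30 min against 2.98%, 2 (4.76%) at 2 h against 3.57%, and 0 at 4 h (2.3%). Broad peaks covered little of most members' bodies. For all genes mean broad cover was 5.37%, 7.47%, 11.6%, 6.45%, 7.01% and 6.00% in order of time. The members thus lay above all genes at 20 min only, and below them in the other broad lists. Psma7 had the most at 0 min, with broad cover of 72.5%, 79.4%, 100.0%, 86.3%, 36.5% and 37.2% in order of time. Psme3 had 0.0%, 18.8%, 84.8%, 23.6%, 21.8% and 6.25%, and was the member past 20 points at 30 min. Psme3, Psmd7, Psmd3 and Psmg3 reached 49.0% to 84.8% at 20 min, the deepest library, and had at most 23.6% in the other lists. Despite their name, the broad lists held shorter regions at members, with a median promoter peak of 922 bp at 0 min against 3087 bp in the narrow list. Ribosomal protein genes, by contrast, had 84.1% broad cover at 0 min.

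Over the 5 later narrow lists, 6 members were higher by over 20 points in each of them (14.3% of 42), against 4.05% of all genes. They were Psma5, Psmb2, Psmb3, Psmd6, Psme3 and Psmg3. Psmd6, a lid subunit gene, had cover of 30.6% at 0 min, 100.0% at 10 and 20 min, 93.4% at 30 min, 88.5% at 2 h and 79.1% at 4 h. Psma5 had 40.0%, 96.3%, 100.0%, 81.4%, 87.8% and 82.5% in the same order of times. Psmb2, a non-catalytic beta subunit gene, had 10.2%, 67.4%, 85.9%, 57.6%, 51.9% and 34.0%. Psme3, with the strongest Myc peak, had 77.8% at 0 min and 100.0% in each later list, the ceiling of the measure. Psmg3 had 79.9% at 0 min and also 100.0% in each later list, 20.1 points higher and so barely past the 20 points. The narrow peaks at Psmb3 also took in the start of Pcgf2, whose share in that gene's cover was not tested.

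Other members had long cover in the early lists only, or in single lists. Psma4 began at 18.5%, had 90.5%, 100.0% and 79.2% in the lists of 10, 20 and 30 min, but 23.3% at 2 h and 48.1% at 4 h. Psma3, another alpha subunit gene, had 68.5%, 92.8%, 97.0% and 100.0% over the first 30 min and then 74.0% and 64.5%. Psmb7, which carries the trypsin-like site, had 49.9% at 0 min, 93.3% at 10 min, 18.0% at 20 min, 89.5% at 30 min, 80.1% at 2 h and 85.6% at 4 h. Psmb5 had 0.0% at 0 min, 88.1% at 10 min, 4.02% at 20 min, 9.23% at 30 min, 28.1% at 2 h and 16.1% at 4 h. Both catalytic genes thus had 1 list out of step with its neighbours, Psmb7 low and Psmb5 high, and no second library was there to repeat it. At Psmb5 the promoter peak was 5220 bp long at 10 min and 1980 bp at 0 min.

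Not all members had longer cover after OHT. Narrow cover was lower than at 0 min at 9 of 42 members and equal at 2 at 30 min, and it was lower at 12 and equal at 5 at 4 h. Psma2 was the one member lower by over 20 points at 30 min, with 68.3% at 0 min, 41.7% at 10 min, 63.4% at 20 min, 42.5% at 30 min, 38.3% at 2 h and 64.7% at 4 h. It shares its promoter with Mrpl32 on the opposite strand, and the peaks carry no strand. The next lowest differences at 30 min were at Psmc3ip (100.0% at 0 min, 82.6% at 30 min), Psmd13 (11.6% and 3.06%) and Psmb1 (66.8% and 61.1%). Psma7 and Psmd7, an alpha and a lid subunit gene, were covered fully in all 6 lists. A further 11 members stayed under 20% in all 6 (26.2%; all genes 52.5%), among them the long Psme4, Psmf1, which encodes an inhibitor, and Psmg1, Psmg2 and Psmg4. Psme4 had at most 1.17%.

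The classes differed in level. Mean cover at 0 min was 52.4% for 6 ATPase genes, 45.1% for 7 alpha genes, 42.0% for 11 other cap genes and 39.7% for 5 standard beta genes. It was 21.0% for 5 activator or inhibitor genes and 18.3% for 7 chaperone genes. At 30 min these were 57.8%, 60.9%, 52.5%, 63.2%, 28.7% and 22.1%. The largest differences between 0 min and 4 h were at Psmd6, Psma5, Psmb7 and Psma4, all given above. The core and cap classes lay above the activator and chaperone classes at both times. Over 20 points were reached at 30 min by 3 of 7 alpha genes, 3 of 5 standard beta genes, 2 of 11 other cap genes, 1 of 5 activator or inhibitor genes and 1 of 7 chaperone genes, and by 0 of 6 ATPase genes. The ATPase genes Psmc3 and Psmc5 had 97.8% and 100.0% at 0 min, and Psma7 and Psmd7 of other classes also had 100.0%. The other ATPase genes had more room. Psmc1 had 15.3% at 0 min and 22.3% at 30 min, Psmc2 34.8% and 54.2%, Psmc4 1.42% and 2.89%, and Psmc6 65.2% and 69.4%. The cause of the ATPase count was not tested. Among further members, Psmd1 had 6.00% at 0 min and 9.37% at 30 min, Psmd11 54.7% and 75.3%, and Psme1 14.8% and 17.6%. Of these Psmd11, a lid subunit gene, was the one past 20 points.

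**Figure D3:**
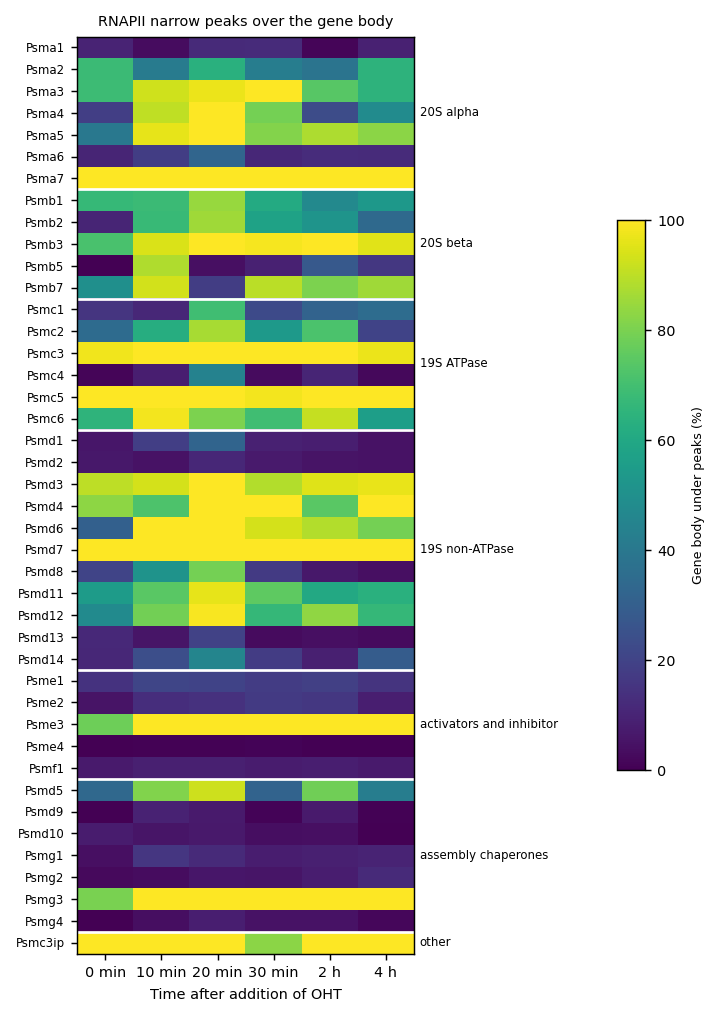
Share of the gene body under narrow RNAPII peaks (colour, percent) for 42 members in rows, grouped by class, at 6 times after OHT, 1 library each. Psma5, Psmb2 and Psmd6 are darker at 0 min than at the later times, Psma7 and Psmd7 are at 100% throughout, and Psme4 stays near 0.

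**Figure D4:**
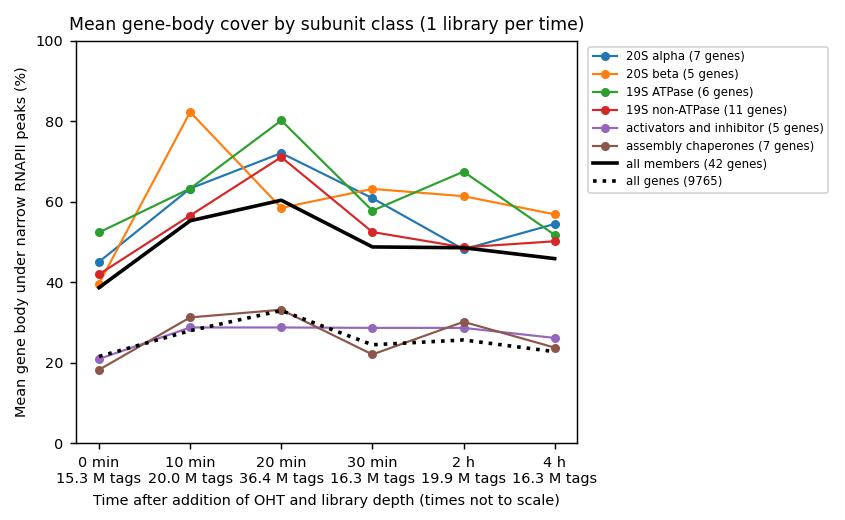
Mean gene-body cover (percent) under narrow RNAPII peaks by subunit class at 6 times (points; lines only join them), with all 42 members (black) and all 9765 genes (dotted), and the tags of each library (M, 1e+06) below the times. The core and cap classes lie above all genes at every time, and the activator and chaperone classes lie near them.

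Proteasome-related genes outside the rule were described from a list of 26, of which 25 were found. All 25 had RNAPII in all narrow lists and Myc at 4 h. The shares were 43.5% and 46.7% over all genes, but 91.7% and 92.2% over genes with RNAPII at 0 min. Miz1 was at 7 in fibroblasts and at 5 in B cells, against 8.25% and 5.48% of all genes and 16.1% and 10.3% of genes with RNAPII at 0 min, among them the ubiquitin gene Ubb (66.5-fold and 40.5-fold). Their median Myc percentile at 4 h was 79.3, above the members' 54.7. Cover was higher at 30 min by over 20 points at 7 of the 22 with a measured body, against 9.22% of all genes, among them Nfe2l2 (22.6% at 0 min, 100.0% at 30 min) and Pomp, the maturation factor of the core (18.6% and 47.0%). Nfe2l1 was covered fully at 0 min and 30 min.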

How the data were processed

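ChIP-seq of 15 mouse samples, 1 per group, was read from 20 deposited peak lists of 14 samples; the input library itself was not analysed here. Reads had been aligned with BWA 0.6.2-r126 to mm9, per the submitters' processing notes. MACS 1.4.2 made the lists of Myc and the narrow ones of RNAPII, and MACS 2.0.9 those of Miz1 and the broad ones of RNAPII, per the file headers, each on 1 library against a control, with a p cutoff of 1e-08 (Miz1: 1e-02 in fibroblasts, 1e-05 in B cells). The authors deposited, per peak, tag counts or pileup signal, fold enrichment as a ratio, scores of −10log10 or −log10 p-value and q-value, and FDR in percent. A deeper library allows weaker and longer peaks to be called.

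Peaks were joined to GENCODE vM1 genes in Python 3.11.15 with pandas 2.3.3: promoters by at least 1 bp overlap with 1000 bp around any start site, keeping the peak of highest fold, and gene-body cover as described above. Percentiles are ranks among genes with a promoter peak in that list. The functions were tested on simulated peaks. Sequences came from the NCBIM37 genome, which is mm9, read with samtools 1.23.1. With 1 library a group no test was made.

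Members, gene lists and comparisons were chosen with earlier results of these data known. Named were members with Miz1, with missing or varying Myc or RNAPII, the 6 highest and 4 lowest Myc folds at 4 h, the largest gains and losses of cover, and 15 set genes. Psma7, Psmc1, Psmc5, Psmc6, Psmd7, Psme2 and Psmg3, where named, were chosen after their values were seen. Alternatives varied windows, start sites, ranks, peak numbers and strength, body limits and motifs.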

Additional observations from a re-analysis of the deposited data

How the results depend on the processing

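Of 133 values recomputed under alternative settings, 121 counted as close to the reported one. Close meant within 1.5 times for a count or difference, and inside a 95% Wilson interval for a mean or median. That interval treats a mean or median percent as a share of genes and does not measure its spread. By it the Myc rank at 0 min, 57.5 by fold and 46.2 by p, counted as close. Every count of members with a Miz1, Myc or RNAPII promoter peak stayed within 1.5 times under each window, start-site, summit, strength and peak-number alternative run. The results on gene-body cover depended on the peak caller. With the broad lists, mean cover was 4.48%, 5.05% and 4.40% for 0 min, 30 min and 4 h; the mean difference from 0 min was 0.569 points at 30 min and -0.0793 points at 4 h, a reversed sign; and 1 member at 30 min and 0 at 4 h were higher by over 20 points. With peaks above each list's median fold only, mean cover at 0 min was 22.0%. With lists of equal total peak length, an alternative chosen after seeing the data, the mean difference at 30 min was 2.93 points, against 10.1 reported. The number of members with CACGTG near the Myc summit was 3 at 0 min within 50 bp, and 10 at 0 min and 12 at 4 h with CACGCG allowed. The cause of these shifts was not tested. Leaving out Psmc3ip and Psme2b-ps, also chosen after seeing the data, moved no value that far. No paired analysis was possible because each group has 1 library and no replicate.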
